A study of Sus scrofa with 5 samples.

Results

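CXCL9, CXCL10 and CXCL11 are 3 small secreted chemokines of the CXC family, and their transcripts were followed in bulk RNA sequencing of a pig kidney transplanted into a human recipient. The 3 genes were chosen by name and because of their measured counts, so their levels, fold changes and human shares are a description and carry no test. They are 3 of 15232 genes in a table of counts over the pig genome (the pig table) and 3 of 59350 genes in a table of counts over the human genome (the human table). The xenograft group held 1 kidney biopsy each at 12 h, 24 h and 48 h, and the control group held 2 libraries of untransplanted kidney at 0 h. All 5 libraries were total RNA from the second case of the study, depleted of ribosomal RNA. Strain, genotype and age of the pigs and any treatment of the recipient are not given in the sources used here. The biopsies come from a single graft and nothing says that the controls were separate animals, so p-values measure only the spread among these libraries, which may be technical. Between groups the 3 times serve as replicates, so the spread among biopsies also includes change with time. The samples are labelled as dissociated cells, although the extraction text starts from core biopsies.

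CXCL9, CXCL10 and CXCL11 bind the receptor CXCR3, which activated T cells and NK cells carry, and draw those cells into inflamed tissue. Interferon gamma induces all 3, with IRF1 among the factors involved. CXCL10 and CXCL11 also respond to type I interferon, and NF-kB adds to their transcription. In human kidney transplants these chemokines are known markers of rejection, produced by infiltrating macrophages and by the graft's own endothelial and tubular cells. Because graft and recipient are of different species here, a read can in principle be assigned to the pig graft or to the human recipient's cells.

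The pig table held 56129925 to 66169176 counts in the biopsies and 65919506 to 71108823 in the controls. The human table held 18766600 to 19735281 counts in the biopsies and 13385437 to 15056467 in the controls. Control counts in the human table give its background in kidney that had no human recipient. Levels are given below as CPM, counts per 1000000 counts of the library's pig-table column, for both tables, so that they share a denominator. On this scale the median gene was 1.42-fold higher in the biopsies in the pig table and 1.78-fold higher in the human table. Fold changes from edgeR were scaled by TMM, which places that median near 0, and lie 0.49 (pig) and 0.79 (human) lower on the log2 scale. The 2 controls were not copies of each other: a chi-square test of their counts over genes gave 218 per degree of freedom in the pig table and 14.5 in the human table. Marker genes of kidney epithelium were abundant in every library. UMOD, the tubular protein uromodulin, had 370913, 363013 and 226786 pig-table counts at 12, 24 and 48 h and 159168 and 132513 in the controls. Most of that list went the other way, with 1 of 13 pig-table genes higher and 9 lower (edgeR) and a median log2 fold change of -1.86. Over all pig-table genes tested, 18.5% were higher and 19% lower. Genes tested are those that passed the filter on low counts, 12620 in the pig table and 18403 in the human table.

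In the pig table all 3 chemokines were far above the controls in every biopsy. Of all pig-table genes tested, edgeR called 18.5% higher in the biopsies, and the 3 were chosen with their counts known. CXCL10 stood at 72.5, 69.4 and 69.8 CPM at 12, 24 and 48 h, against 5.76 and 3.83 CPM in controls 1 and 2. Those levels rest on 4584, 4590 and 3920 counts in the biopsies and 380 and 272 in the controls. CXCL10 was thus as high at 12 h as later, with 70.6 ± 1.68 CPM in the biopsies (SD, n = 3) and 4.80 ± 1.37 in the controls (SD, n = 2).

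CXCL9 behaved differently over time. Its pig-table level was 17.6 CPM at 12 h (1110 counts), 43.4 at 24 h (2874 counts) and 49.8 at 48 h (2796 counts), against 2.56 and 1.93 in the controls (169 and 137 counts). The 12 h biopsy was the low one, and the 24 h level was 2.47-fold that at 12 h (95% interval of counting error 2.31 to 2.65). The step to 48 h was 1.15-fold (1.09 to 1.21), close to the 1.09-fold step of the median pig-table gene.

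CXCL11 peaked in the middle biopsy. It stood at 9.65, 13.5 and 7.00 CPM at 12, 24 and 48 h (610, 896 and 393 counts), against 0.243 and 0.309 in the controls (16 and 22 counts). The 48 h level was 0.517 times that at 24 h (0.458 to 0.583). Against the mean of the controls, the mean of the biopsies was 16.5-fold higher for CXCL9, 14.7-fold for CXCL10 and 36.5-fold for CXCL11. On the TMM scale, edgeR gave log2 fold changes of 3.56 ± 0.49, 3.41 ± 0.15 and 4.68 ± 0.45 (approximate SE) for CXCL9, CXCL10 and CXCL11. Intervals here and below cover counting error only, and each time is a single biopsy, so a step between times has no replicate check.

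The balance between the pig transcripts moved with these courses. Per CXCL9 count there were 4.13 CXCL10 counts at 12 h (3.87 to 4.41), 1.60 at 24 h (1.52 to 1.67) and 1.40 at 48 h (1.34 to 1.47), against 2.25 and 1.99 in the controls. The CXCL11 to CXCL9 ratio was 0.550 at 12 h, 0.312 at 24 h and 0.141 at 48 h, against 0.0947 and 0.161 in the controls. The 12 h biopsy thus had the most CXCL10 and CXCL11 per CXCL9. Counts were not corrected for transcript length, so only the change of a ratio between libraries can be read.

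**Figure D1:**
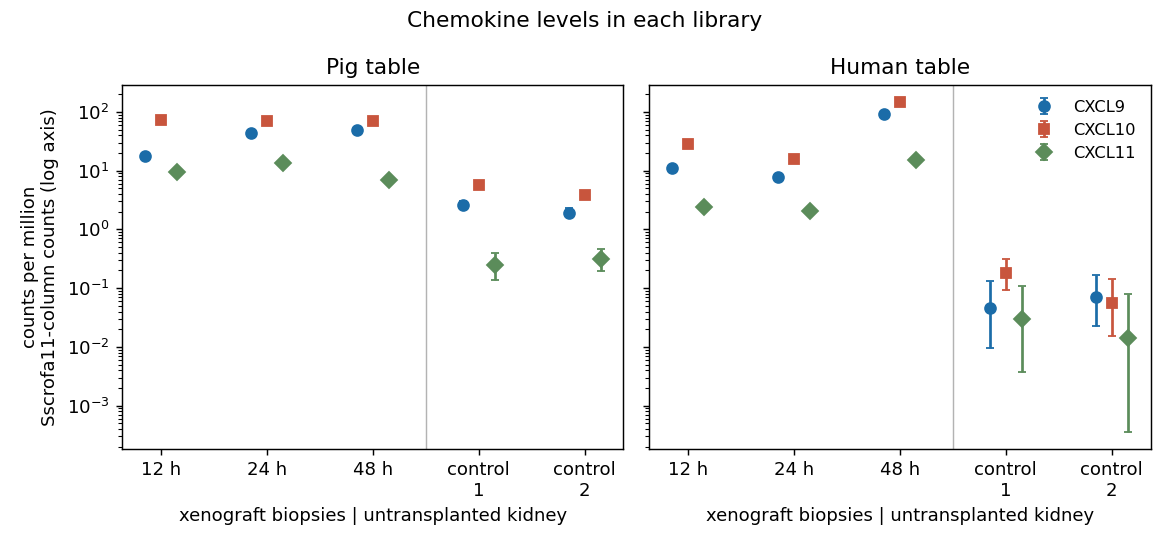
Level of CXCL9, CXCL10 and CXCL11 in each library, in CPM of the pig-table column on a log axis, with biopsies left and controls right of the line. Bars are exact 95% Poisson intervals, often smaller than the symbols. In the pig table the biopsies lie above the controls with little change over time for CXCL10, and in the human table the 48 h biopsy lies above those at 12 and 24 h.

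The human table gave another course for the same genes, with a dip at 24 h and a high 48 h biopsy. Human-table CXCL9 had 699, 515 and 5062 counts at 12, 24 and 48 h and 3 and 5 counts in the controls, or 11.1, 7.78 and 90.2 CPM in the biopsies against 0.0455 and 0.0703. The 48 h level was 11.6-fold that at 24 h (10.6 to 12.7).

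Human-table CXCL10 had 1798, 1048 and 8243 counts at 12, 24 and 48 h, against 12 and 4 in the controls. Its levels were 28.4, 15.8 and 147 CPM in the biopsies and 0.182 and 0.0563 in the controls. The 24 h level was 0.557 times that at 12 h (0.516 to 0.602), and the 48 h level was 9.27-fold that at 24 h (8.69 to 9.90).

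Human-table CXCL11 had 152, 137 and 851 counts at 12, 24 and 48 h, against 2 and 1 in the controls. Its 48 h level was 7.32-fold that at 24 h (6.11 to 8.84), while the step before it was 0.861 (0.679 to 1.09), an interval that includes no change. The median human-table gene moved 0.904-fold and then 1.19-fold over the same steps. Every human-table chemokine thus had its highest value at 48 h and its lowest biopsy value at 24 h.

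Because of the 48 h biopsy, the spread among biopsies in the human table was as large as the mean. CXCL9 averaged 36.3 ± 46.7 CPM in the biopsies and 0.0579 ± 0.0175 in the controls, and CXCL10 averaged 63.7 ± 72.3 and 0.119 ± 0.0889 (SD, n = 3 biopsies and n = 2 controls). Pooled over libraries, biopsies over controls gave a ratio of 579 for CXCL9 (294 to 1343), 512 for CXCL10 (315 to 896) and 281 for CXCL11 (95.8 to 1363). The wide intervals come from 8, 16 and 3 control counts. Without the 48 h biopsy (log2 scale, biopsies over controls), the ratio of means was 7.35 in place of 9.29 for CXCL9, 7.54 in place of 9.06 for CXCL10 and 6.65 in place of 8.20 for CXCL11. Without control 1 it was 10.15 for CXCL10 and 8.86 for CXCL11, and without control 2 it was 8.45 for CXCL10.

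The human-table share of the counts in both tables was lowest at 24 h and highest at 48 h. For the 3 genes together it was 29.6% at 12 h (28.6 to 30.6), 16.9% at 24 h (16.2 to 17.7) and 66.6% at 48 h (65.9 to 67.2), against 2.92% (1.71 to 4.64) and 2.27% (1.09 to 4.13) in the controls, with exact Clopper-Pearson 95% intervals. Over all symbols found in both tables with at least 100 counts, the median share was 19.5%, 18.8% and 20.7% in the biopsies and 16.5% and 15.6% in the controls. The chemokines were therefore below the median symbol in the controls, between its quartiles at 24 h (10.1% to 28.7%) and above the upper quartile of 30.5% at 48 h.

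At 12 h the members differed from each other, with a human share of 38.6% for CXCL9 (36.4 to 40.9), 28.2% for CXCL10 (27.1 to 29.3) and 19.9% for CXCL11 (17.2 to 23.0). At 24 h the shares were 15.2%, 18.6% and 13.3%. At 48 h they were close together, at 64.4%, 67.8% and 68.4%. A share over 50% was found in 3.57%, 3.15% and 3.87% of all symbols at 12, 24 and 48 h, and at 48 h all 3 chemokines were among them. The share compares counts over genes of unequal length in the 2 genomes, so it is not a share of molecules, and the size of its change over time also depends on length.

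The human-to-pig count ratio, whose fold change between libraries does not depend on length, changed by 10.1-fold between 24 and 48 h for CXCL9 (9.10 to 11.2), 9.21-fold for CXCL10 (8.53 to 9.95) and 14.2-fold for CXCL11 (11.4 to 17.6). The larger change of CXCL11 combines its human-table increase with its pig-table decrease. Over 10955 symbols the median change was 1.08-fold, and 73 symbols (0.666%) changed by at least 4-fold upward, the 3 chemokines included. The rule that chose the genes used this change, so nothing is read from their place among the 73.

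Control counts also measure how many counts the human table holds for pig tissue. The controls had 2.61 human-table counts per 100 pig-table counts for CXCL9, 2.45 for CXCL10 and 7.89 for CXCL11. With that ratio subtracted, the human share at 48 h was 64.1% for CXCL9, 67.5% for CXCL10 and 67.6% for CXCL11. At 24 h it was 13.3%, 16.9% and 6.89%. The subtraction touched CXCL11 most, whose background rests on 3 control counts. The opposite error, human reads counted on the pig genome, cannot be measured in these libraries.

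**Figure D2:**
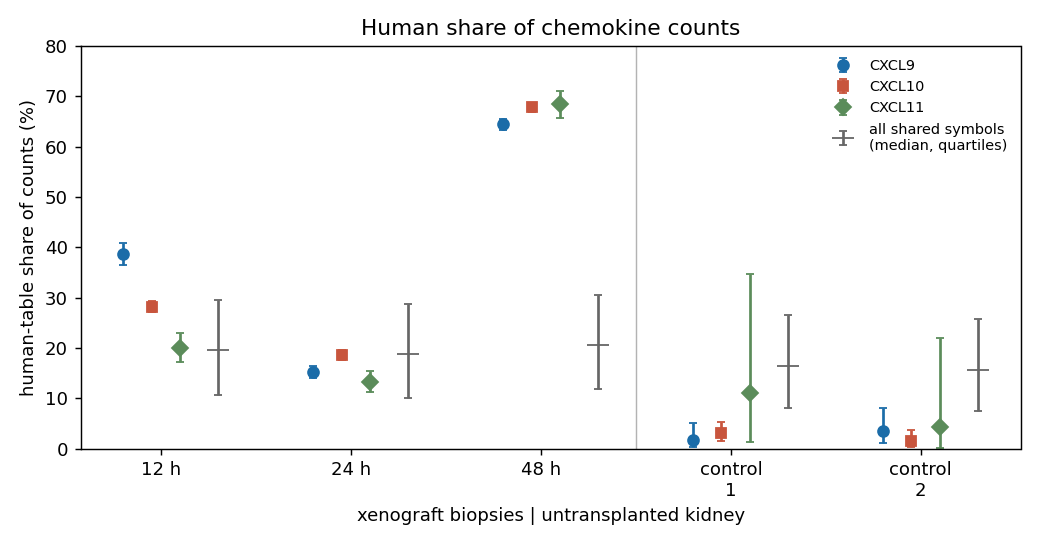
Human-table share of the counts of CXCL9, CXCL10 and CXCL11 in both tables together (percent), with exact 95% intervals, in the 3 biopsies and the 2 controls. Grey marks give the median and quartiles over all symbols in both tables. The chemokines lie between 64.4% and 68.4% at 48 h, while the median symbol stays between 18.8% and 20.7% in the biopsies.

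Human-table markers of T and NK cells and of monocytes and macrophages were, like the chemokines, lowest at 24 h and highest at 48 h among the biopsies, with smaller steps. The 23 T and NK cell markers summed to 24.5, 20.2 and 59.8 CPM at 12, 24 and 48 h and to 2.97 and 1.29 in the controls, a 2.96-fold step between 24 and 48 h. The 18 monocyte and macrophage markers stepped 1.80-fold. The 13 neutrophil markers were highest at 12 h, with 46.8, 31.9 and 42.9 CPM at 12, 24 and 48 h and 0.137 and 0.0563 in the controls. The 9 B and plasma cell markers summed to 5.11, 5.30 and 4.58 CPM in the biopsies and 4.40 and 2.10 in the controls, and 6 of them were at 0 in both controls. JCHAIN made up most of that sum, with 288, 324 and 191 counts in the biopsies and 287 and 147 in the controls. CD79B, the 1 gene called higher (edgeR) of the 2 tested, had 21, 22 and 45 counts in the biopsies and 0 in the controls. It passed the filter on low counts only through the biopsies, and 19.3% of all human-table genes tested were called higher. The sum therefore follows JCHAIN and does not give the course of the other markers. Of the T and NK cell, monocyte and macrophage, and neutrophil lists, 7, 1 and 7 markers were at 0 in both controls, and 21, 18 and 13 were above 0 in all 3 biopsies.

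Set against those sums, the human-table chemokines still had their highest values at 48 h. CXCL10 had 1162, 784 and 2458 counts per 1000 T and NK cell marker counts at 12, 24 and 48 h, a 3.13-fold step between the later biopsies. Per 1000 monocyte and macrophage marker counts it had 38.1, 26.7 and 137, a 5.14-fold step. For CXCL9 the same steps were 3.92-fold and 6.43-fold, and for CXCL11 they were 2.47-fold and 4.06-fold. In bulk tissue, fewer or more cells of a type cannot be told apart from less or more RNA per cell, and the part of these cells in the chemokine counts was not tested.

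The pig-table marker sums took another course. Pig monocyte and macrophage markers summed to 639, 791 and 1323 CPM at 12, 24 and 48 h and to 210 and 203 in the controls. Pig T and NK cell markers summed to 22.9, 22.0 and 23.9 CPM in the biopsies, below the 29.9 and 25.4 of the controls. Pig endothelial markers stood at 1099, 1165 and 1161 CPM in the biopsies, above the 506 and 322 of the controls, and like pig CXCL10 they changed little between biopsies. Their part in the chemokine levels was not tested.

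**Figure D3:**
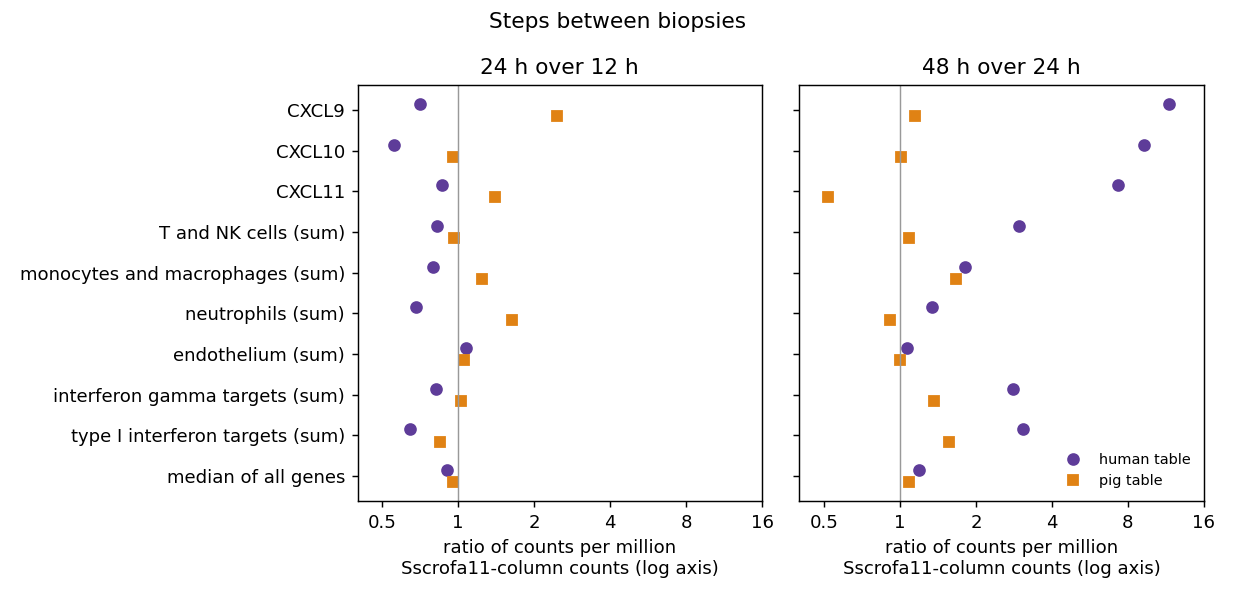
Ratio of the level (CPM of the pig-table column, log axis) at 24 h over 12 h and at 48 h over 24 h for the 3 chemokines, for summed marker and interferon target lists and for the median of all genes, in the human table (circles) and the pig table (squares). Between 24 and 48 h the human-table chemokines stepped 7.32-fold to 11.6-fold and the human T and NK cell markers 2.96-fold.

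The receptor CXCR3 was barely detected. In the pig table it had 16, 15 and 23 counts at 12, 24 and 48 h and 15 and 23 in the controls, and edgeR gave a log2 fold change of -0.43 ± 0.47 (adjusted p = 0.501). In the human table it had 5, 1 and 6 counts, against 4 and 6 in the controls, so human CXCR3 was not detectable above that table's background at this depth. In the biopsies the ligands thus had 137 to 8243 counts where their receptor had 1 to 23.

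Among 6 receptors, scavengers and modifiers tested in each table, 1 rose and 2 fell in both, though human-table control counts are background. Of all pig-table genes tested, 18.5% rose and 19% fell in the same edgeR comparison, and of human-table genes tested 19.3% rose and 15.9% fell. ACKR1, a scavenging receptor of venular endothelium and red cells that binds CXCL11 and many other chemokines, had 1222, 1313 and 507 pig-table counts in the biopsies and 39 and 27 in the controls, a log2 fold change of 4.59 ± 0.48 (edgeR adjusted p = 0.00117). ACKR1 was thus higher in every biopsy and lowest among them at 48 h, like pig CXCL11.

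DPP4, a protease that trims and inactivates all 3 ligands, fell in the pig table by 1.63 on the log2 scale (SE 0.14, edgeR adjusted p = 0.000665), with 11821, 13537 and 13264 counts in the biopsies and 35035 and 28109 in the controls. SDC1, a heparan sulfate proteoglycan, fell by 1.42 (SE 0.14, edgeR adjusted p = 0.000753). DPP4 and SDC1 are also made by tubular epithelium. Of 13 pig kidney epithelium markers tested 9 fell and 1 rose, and the part of these cells in the fall of DPP4 and SDC1 was not tested. ACKR3, a scavenger of CXCL11 and CXCL12, did not pass the test in the pig table, with a log2 fold change of -0.21 ± 0.15 (edgeR adjusted p = 0.311). Human-table DPP4 had 3866, 4330 and 4221 counts in the biopsies and 10965 and 9394 in the controls, which are untransplanted kidney. It fell by 1.94 (SE 0.15, edgeR adjusted p = 2.48e-05), with a human share of 24.6%, 24.2% and 24.1% at 12, 24 and 48 h. Since its control counts are background from pig kidney, that fall is not a fall in human cells. Human-table ACKR1 rested on 14, 17 and 7 counts in the biopsies, against 0 and 1 in the controls, and was not called when control 1 or control 2 was left out.

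Upstream, the transcript of interferon gamma was detected in the human table in the biopsies alone. IFNG had 34, 16 and 56 human-table counts at 12, 24 and 48 h and none in either control, which makes the biopsies at least 26.1-fold higher against a floor of 3 counts over both controls. Its order over time, lowest at 24 h and highest at 48 h, was that of the human-table chemokines, on far fewer counts. Pig-table IFNG had 12, 10 and 3 counts, against 3 and 3 in the controls, and was too low to be tested.

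Among all genes tested, 18.5% rose in the pig table and 19.3% in the human table (edgeR). Of the interferon gamma signalling genes, 4 of 11 tested rose in the pig table and 7 of 12 in the human table, and none fell. The pig median was a log2 fold change of 0.40 and the human median 1.39, against 0.03 and 0.05 over all genes. Pig IRF1, a transcription factor induced by interferon gamma, rose by 1.04 ± 0.21 (edgeR adjusted p = 0.00901), with 4073, 2591 and 2691 counts in the biopsies and 1278 and 1114 in the controls. Pig IFNGR2, a receptor chain, rose by 1.56 ± 0.18 (edgeR adjusted p = 0.0013). Without control 1 or without control 2 the pig count was 1, and IRF1 was not called although its log2 fold change stayed at 1.04.

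Human-table IRF1 rose by 2.19 ± 0.26 (edgeR adjusted p = 0.000297), with 1606, 1079 and 2020 counts in the biopsies and 232 and 208 in the controls. Pig IRF1 rose too, and controls held human-table IRF1 counts, so part of this rise may be background from pig kidney. The ratio of human to pig control counts was subtracted only for the chemokine shares, so that part was not tested. The same limit holds for other signalling genes that have human-table control counts and rose in the pig table. IFNGR1 had 1579, 935 and 2042 human-table counts in the biopsies and 0 and 1 in the controls. IRF8, a factor of myeloid cells, rose by 3.84 ± 0.46 (edgeR adjusted p = 0.000443). Human leukocyte markers rose beside these genes, in 13 of 17 T and NK cell markers tested and 16 of 17 monocyte and macrophage markers. Of the 17 T and NK cell markers tested, 5 were at 0 in both controls and passed the filter only through the biopsies. Others had few control counts, so these calls depend on the filter. The part of these cells in the result was not tested.

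Other interferon gamma targets rose in both tables, beside 18.5% of all pig-table and 19.3% of all human-table genes tested that rose (edgeR). Pig-table genes rose in 12 of 15 cases tested and fell in none, with a median log2 fold change of 1.36. PSMB10, an immunoproteasome subunit, rose by 1.92 ± 0.16 (edgeR adjusted p = 0.000586), and ICAM1, a leukocyte adhesion molecule, by 1.87 ± 0.28 (edgeR adjusted p = 0.00387). The pig count was 6 without control 1 and 5 without control 2, and ICAM1 was not called without control 2 (log2 fold change 1.71). Among human-table genes 19 of 22 tested rose and none fell, with a median of 3.62, and 13 rose without control 1 and 12 without control 2. GBP1, a guanylate-binding protein, had 2096, 1267 and 4716 human-table counts in the biopsies and 17 and 13 in the controls. Where a gene has almost no control counts in the human table, the filter lets it in only through high biopsies, so these human counts depend on the filter. Where a target has human-table control counts and rose in the pig table, background from pig kidney was not subtracted and its part was not tested.

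For change over time, a slope per 24 h within the xenograft was fitted across all genes tested with edgeR. Of the pig-table genes tested 3.34% rose and 0.983% fell over time, and of the 15 interferon gamma targets edgeR called 0. At an unadjusted p under 0.05, 4 of them were higher and 2 lower, and DESeq2 called 1 higher and 1 lower. Of the human-table genes tested 0.924% rose and 0.196% fell, and 3 of 22 targets rose, namely CD74, GBP5 and IDO1. CD74, the invariant chain of MHC class II, had 4833, 5005 and 15064 human-table counts and a slope of 1.19 (edgeR adjusted p = 0.00477). The 3 calls rest on the 48 h biopsy. Without it 0 of the 22 were called (CD74 at an adjusted p of 0.945), against 17 without the 12 h biopsy, 16 without the 24 h biopsy and 17 without the filter on low counts. Leaving out the 12, 24 or 48 h biopsy gave 3, 3 and 0 higher and 0, 3 and 3 lower pig-table targets.

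The chemokines had fitted log2 slopes per 24 h of 2.09, 1.64 and 1.82 in the human table and 0.79, -0.08 and -0.48 in the pig table, for CXCL9, CXCL10 and CXCL11. The interferon gamma targets summed moved 2.80-fold between 24 and 48 h in the human table and 1.37-fold in the pig table. Human-table CD274, the checkpoint ligand PD-L1, had 60, 35 and 169 counts, while pig-table CD274 had 408, 227 and 160. The human share of CD274 counts was 12.8%, 13.4% and 51.4% at 12, 24 and 48 h. CD274 thus also changed its human share late, as did WARS1, with 35.8%, 30.8% and 57.1%, and GBP2, with 22.8%, 37.3% and 64.3%, all 3 chosen after their values were seen.

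Of all genes tested, 18.5% rose in the pig table and 19.3% in the human table (edgeR). Type I interferon targets, several of which respond to both interferons, also rose. Of the 20 tested on the pig side 11 rose and none fell, with a median log2 fold change of 0.84, and the count was 5 without control 1 and 2 without control 2. Pig ISG15, a ubiquitin-like modifier, rose by 2.34 ± 0.24 (edgeR adjusted p = 0.000947), with 1995, 1238 and 1319 counts in the biopsies and 240 and 231 in the controls. Of the 20 tested on the human side 19 rose, 10 without control 1 and 8 without control 2. Their sum stepped 3.07-fold between 24 and 48 h in the human table and 1.56-fold in the pig table. The genes of NF-kB and TNF signalling rose in 10 of 13 cases in the pig table, with 5 left without control 1 and 4 without control 2, and in 12 of 13 in the human table, with 8 and 6 left. Pig TNFRSF1B, a TNF receptor, rose by 2.92 ± 0.19 (edgeR adjusted p = 0.000283). For these lists too, background from pig genes that rose was not subtracted from the human table, and its part was not tested. Human-table genes of these lists with almost no control counts passed the filter only through high biopsies.

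**Figure D4:**
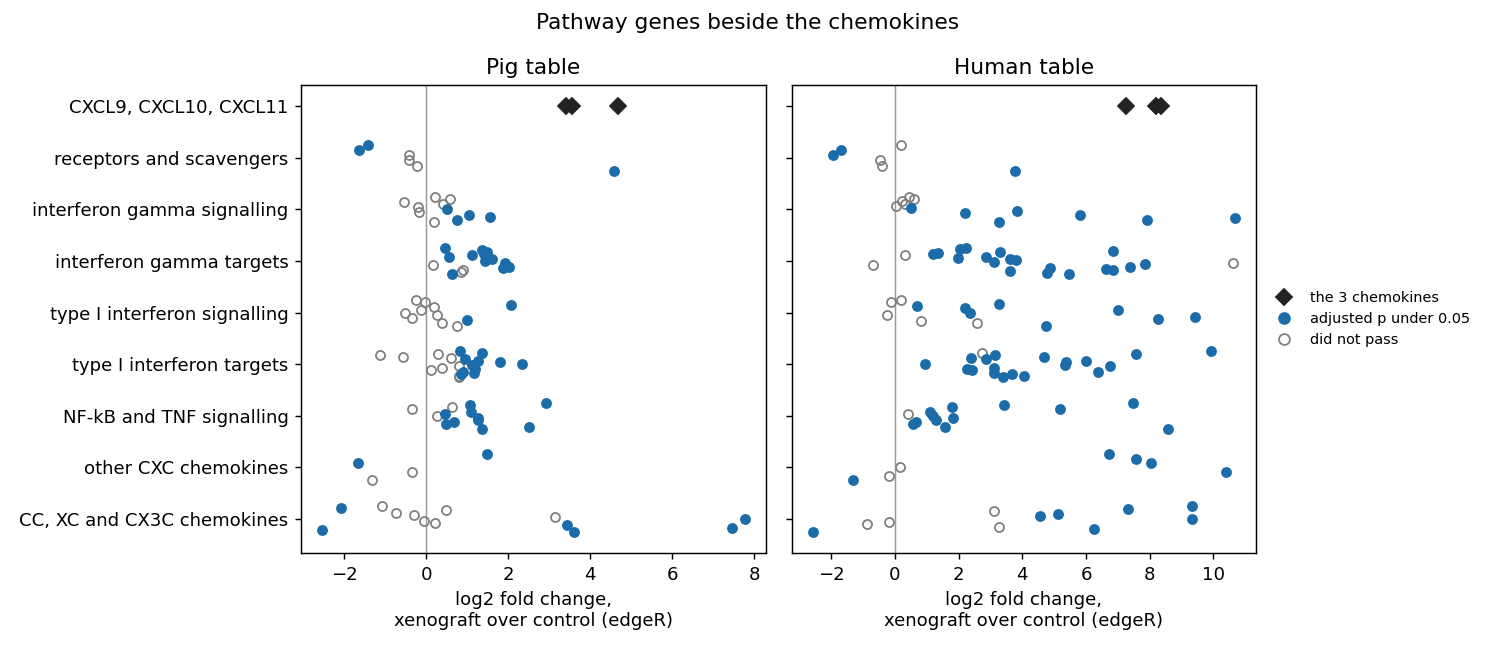
Log2 fold change, xenograft over control, from edgeR for the 3 chemokines (diamonds) and for each tested gene of the signalling, target and chemokine lists, in the pig and human tables. Filled circles passed an adjusted p of 0.05. The chemokines lie at 3.41 to 4.68 in the pig table, above the 2.02 of the largest interferon gamma target there. Pig ACKR1 and CCL19 lie within the range of the chemokines. Pig CCL17, with 404 counts over the biopsies and 1 over the controls, lies above that range.

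The genes whose profile over the 5 libraries was most like the mean of the 3 chemokines differed between the tables. Likeness was the root mean square difference of log2 levels, each taken relative to the controls. On the pig side the closest of 11192 genes was CD163, a scavenger receptor of macrophages, at 0.19, with 13248, 17820 and 16597 counts in the biopsies and 791 and 754 in the controls. It was followed by TMEM59L, TENT5B, S100A6, SPHK1, PROCR, ANKRD22 and ANXA2, at up to 0.42. CXCL10, CXCL9 and CXCL11 themselves lay 0.39, 0.49 and 0.70 from their mean.

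In the human table the closest of 12740 genes was IDO1, the interferon-induced enzyme that degrades tryptophan, at 0.28, with 63, 50 and 574 counts in the biopsies and none in the controls. CD38, GBP5, OAS3, PLAAT4, ANKRD22, XAF1 and COL17A1 followed, at up to 0.53. ANKRD22 was the gene named in both tables, with 335, 246 and 260 pig-table counts in the biopsies against 19 and 14, and 250, 195 and 723 human-table counts against 2 and 1. Among the 8 human-table genes, IDO1, CD38, OAS3 and XAF1 were at 0 in both controls, where likeness partly reflects the pseudocount.

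The 3 genes are neighbours on pig chromosome 8 in the RefSeq annotation of assembly Sscrofa11.1, in the order CXCL9, CXCL10, CXCL11, between SDAD1 and NUP54. ART3 spans CXCL10 and CXCL11, and without a stated strand setting its reads cannot be told apart from theirs. ART3 had 20, 48 and 52 pig-table counts in the biopsies and 12 and 5 in the controls, far fewer than CXCL10 in each library. CXCL11 had 610, 896 and 393 in the biopsies but only 16 and 22 in the controls, so in control 1 the counts of ART3 and CXCL11 were close. The part of ART3 reads in the CXCL11 control counts, on which its fold change rests, was not tested. The flanking genes did not share the size of the change. In the pig table SDAD1 had a log2 fold change of 0.26 ± 0.20 (edgeR adjusted p = 0.335) and NUP54 of 0.57 ± 0.20 (edgeR adjusted p = 0.0552), while NAAA, next beyond SDAD1, fell by 1.79 (SE 0.26, edgeR adjusted p = 0.00313).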

How the data were processed

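Bulk RNA of 5 libraries was measured. The authors deposited whole-number counts per gene in 2 tables, of the Sscrofa11 build per the file headers and of hg38 per the submitters' processing notes. Aligner, counter, annotation, strand setting and the handling of reads that match both genomes are not given in the sources used here. Since the last sets how a read is assigned, human shares depend on it.

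Levels are counts per 1000000 counts of a library's pig-table column (CPM). Genes were tested on the deposited counts with edgeR 4.0.16 in R 4.3.3 (TMM scaling, low genes removed by filterByExpr at min.count 10 and min.total.count 15, robust quasi-likelihood test, Benjamini-Hochberg adjustment at 0.05), for xenograft against control (3 residual degrees of freedom) and for a slope per 24 h within the xenograft (2 residual degrees of freedom). Standard errors are the absolute log2 fold change over the square root of F. The fits were tested on simulated data. DESeq2 1.42.0, its size factors, no filter, pig-table library sizes for the human table and leaving out each library were alternatives. Intervals are exact 95% intervals, except that those of changes in the human-to-pig count ratio use a normal approximation on the log scale. All cover counting error only. Shares over all symbols need 100 counts, profiles a pseudocount of 0.5. Ratios of genes at 0 in the controls use a floor of 3 counts over both controls.

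Named genes are the chemokines, all receptors, scavengers and interferon gamma signalling genes, up to 4 called genes with the largest absolute log2 fold change of each other list, and the 8 nearest profiles among genes with at least 100 counts in a biopsy; neighbouring genes were added for their position. The members and the lists were chosen with earlier results of these data known. Symbols linked to sex were left out (35 human, 3 pig). No genome was used, so no sequence is shown. Single-gene values of 1 signalling gene are not reported here.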

Additional observations from a re-analysis of the deposited data

How the results depend on the processing

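In the 3 biopsies over the 2 controls, genes called higher and lower with edgeR numbered 464 to 2633 and 727 to 2633 in the pig table when each library was left out in turn, and 1551 to 3453 and 1317 to 2841 in the human table. The lowest counts came without control 2, which leaves a single control. Interferon gamma signalling genes called higher in the pig table ranged from 1 to 4, interferon gamma targets from 5 to 12 and type I targets from 2 to 13. In the human table those targets ranged from 12 to 20 and from 8 to 20. For the slope, leaving out a biopsy gave 662 to 1728 higher and 337 to 1037 lower genes in the pig table, and 276 to 725 and 88 to 248 in the human table. DESeq2 called 265 lower pig-table and 79 lower human-table slopes, and without the filter the human-table slopes were 598 higher and 190 lower. With pig-table library sizes, human-table calls were 5445 higher and 1713 lower between groups and 291 and 57 over time.

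On the TMM scale the pig-table log2 ratio was 3.41 for CXCL10 and 4.68 for CXCL11, against 3.88 and 5.19 on the CPM scale. On the CPM scale, leaving out each library gave 3.61 to 4.21 for pig-table CXCL10. For the human table it gave 7.35 to 9.77 for CXCL9, 7.54 to 10.15 for CXCL10 and 6.65 to 8.86 for CXCL11. Those human-table ratios were lowest without the 48 h biopsy. With each table scaled to its own column, the human share at 12, 24 and 48 h was 66.9%, 38.2% and 84.4% for CXCL9, 55.7%, 44.1% and 86.3% for CXCL10, and 44.4%, 34.5% and 86.6% for CXCL11. With the control ratio subtracted it was 13.3% at 24 h for CXCL9, 26.9% and 16.9% at 12 and 24 h for CXCL10, and 14.5% and 6.89% for CXCL11. The 24 h share stayed the lowest and the 48 h share the highest under both. The cause of these shifts was not tested. No paired analysis was possible because the biopsies carry no replicate numbers. Each time is a single biopsy, and control counts of 3 to 16 limit every human-table ratio of the chemokines.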

Other observations

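Other chemokines and receptors took several courses beside CXCL9, CXCL10 and CXCL11. Of 4 other CXC chemokines tested in the pig table, 1 rose and 1 fell. Over all pig-table genes tested 18.5% rose and 19% fell, and the counts here set the chemokines apart in neither direction. CXCL8, which attracts neutrophils, rose by 1.48 on the log2 scale (edgeR adjusted p = 0.016), with 172, 138 and 99 counts at 12, 24 and 48 h and 43 and 34 in the controls, and was not called when control 1 or control 2 was left out. CXCL2, another neutrophil chemokine, fell by 1.65 (SE 0.15, edgeR adjusted p = 0.000665), with 780, 798 and 600 counts in the biopsies and 2012 and 1584 in the controls. Of 13 CC, XC and CX3C chemokines 4 rose and 2 fell. Without control 1 that was 3 and 0, and without control 2 it was 2 and 0. CCL19, a ligand of CCR7, had 3130, 8587 and 9360 counts in the biopsies and 594 and 439 in the controls, lower at 12 h than later, as pig CXCL9 was. CCL19 rose by 3.45 ± 0.54 (edgeR adjusted p = 0.00524) and was not called without control 2. Pig-table CCL17 had 404 counts over the biopsies and 1 over the controls, a pooled ratio of 298 (53.2 to 11814). CCL22, a ligand of CCR4, had 38, 23 and 28 counts in the biopsies and none in the controls, at least 21.9-fold higher against 3 counts over both controls.

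In the human table, CXCL16 had 144, 96 and 353 counts at 12, 24 and 48 h and none in the controls, at least 146-fold higher against the same floor. The receptors CCR1 and CCR2 of monocytes rose by 7.46 ± 0.39 and 7.42 ± 0.43 (edgeR adjusted p = 3.95e-06 and 7.03e-06). CXCL16 was, like the human-table CXCL9, CXCL10 and CXCL11, lowest at 24 h and highest at 48 h among the biopsies.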
